A study of Neurospora crassa with 2 samples.

Results

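The genes described here are those for actin, tubulin, the motor proteins that run along them, the septins and their partners in Neurospora crassa, a filamentous ascomycete. They were chosen by words in the annotation of the deposited gene table (actin, tubulin, kinesin, dynein, dynactin, myosin, septin, formin, tropomyosin, cofilin, profilin, fimbrin, coronin and ARP2/3), which gave 55 of 9730 genes. RNA was taken from mycelia of the wild type (WT) and of Δgul-1, a strain with the gene NCU01197 for an mRNA-binding protein deleted. Conidia of both strains had been grown for 3 days at 25 °C under constant light in medium with 2% Avicel, a microcrystalline cellulose, as well as yeast extract and Tween 80. Each strain gave 1 RNA-seq library, so that no difference below has a replicate check and there are no p-values. The difference of the strains and that of the single cultures cannot be told apart.

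Filamentous fungi grow at the hyphal tip. Microtubules carry organelles and secretory vesicles over long distances, with kinesins and dynein as motors, and actin filaments serve endocytosis behind the tip, vesicle delivery at the tip and the ring that closes a septum. Septins assemble into rings and bars at sites of septation and branching. These proteins are made in all growing hyphae, and actin is a common reference gene in fungal expression work.

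Levels are given as RPKM, the reads of a gene scaled by its exon length and by the reads of the library on genes, in the WT first and then in Δgul-1. The WT library held 20461987 reads on genes and the Δgul-1 library 20341292. Each ratio is the RPKM in Δgul-1 divided by that in the WT, with an exact 95% interval from the reads that covers counting error only. For the 41 genes of the set with more than 20 RPKM in at least 1 library, the floor in the methods of the study, its ends were away from the ratio by a factor of 1.02 to 1.11. With TMM scaling, a normalisation to the bulk of genes, every log2 ratio shifts by -0.15. A gene is called higher or lower in Δgul-1 below only where its counting interval stayed on one side of 1 with the deposited RPKM and with 3 other scalings of the reads. In bulk RNA, fewer cells of a type and less RNA per cell cannot be told apart.

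The deleted gene was nearly absent from its library, with 21537 reads in the WT and 304 in Δgul-1. The marker of hyphae, hex-1, which encodes the core of the Woronin body that plugs septal pores, was among the most abundant genes of both libraries (5511 and 4079 RPKM). Marker genes of other tissues had reads as well. The 6 markers of conidia and aerial hyphae summed to 6727 and 958.2 RPKM, with eas, fl and con-8 lower and con-6, con-10 and con-13 higher. Of these sums, eas alone held 5793 and 169.0 RPKM, so that the difference of the sums is mostly that of this gene. The 2 markers of sexual tissue went apart, app from 110.2 to 7.38 RPKM and ccg-4 from 104.8 to 1090 RPKM. None of these 8 markers was at 0 in either library, and their part in the ratios below was not tested.

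As a whole, the cytoskeletal genes stood at nearly the same level in both strains. Their RPKM summed to 3730 in the WT and 3787 in Δgul-1. They took 0.855% (Wilson 95% interval 0.851% to 0.859%) of the WT reads and 0.868% (0.864% to 0.873%) of the Δgul-1 reads. The ratio of the sums, 1.02, was 0.915 with TMM scaling, and without act, which alone held 803 of the summed RPKM in the WT, it was 1.06. Levels covered a wide range, from 0.171 RPKM for an alpha-tubulin suppressor gene to that of act in the WT. The dumbbell plot of the levels shows that the short bars of most genes are small against this range.

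**Figure D1:**
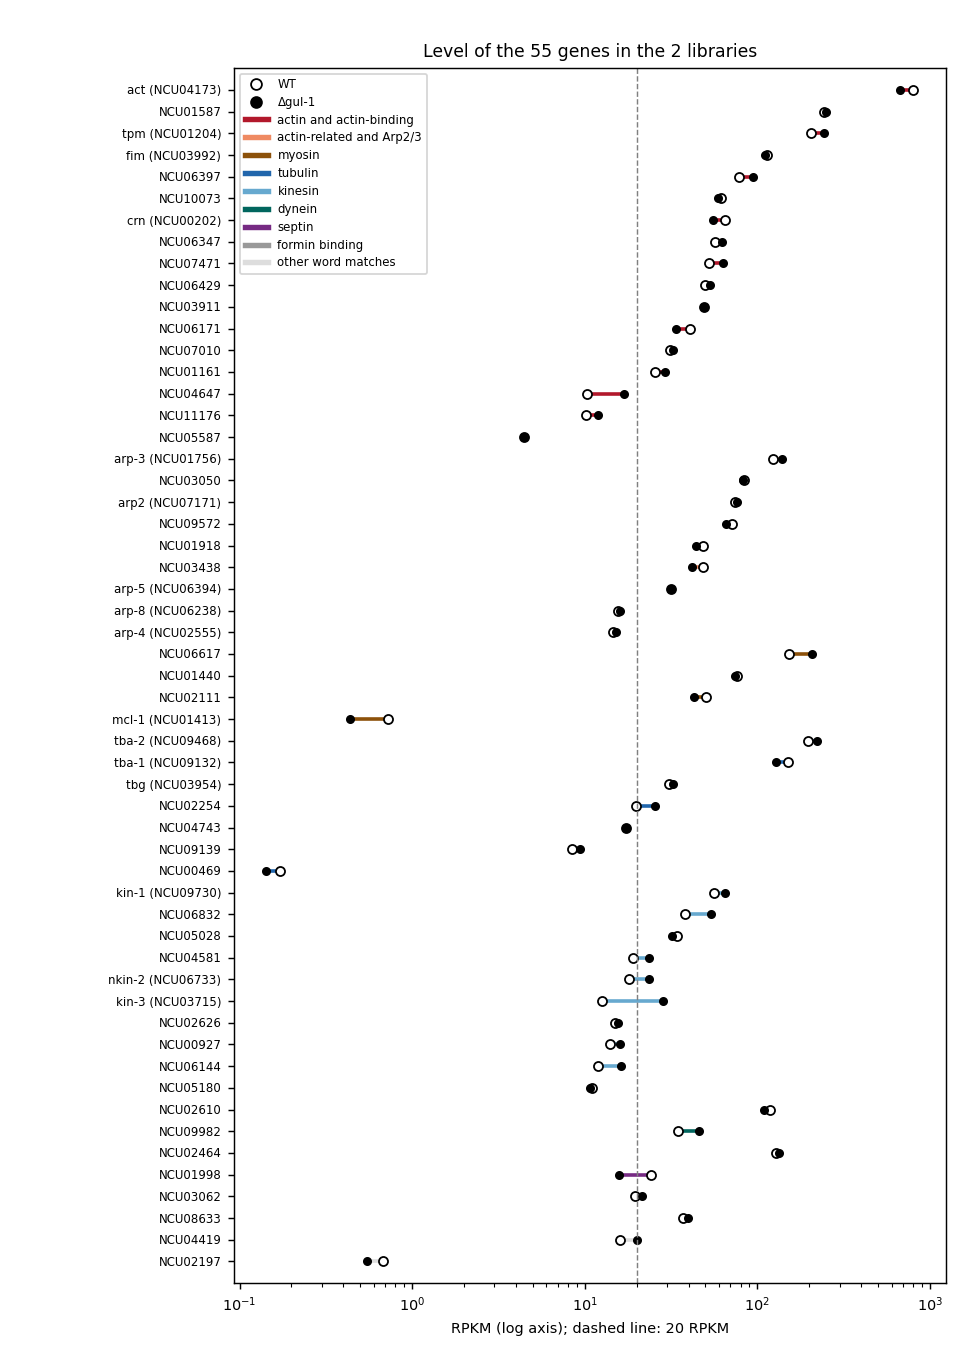
RPKM of each of the 55 genes in the WT library (open circles) and the Δgul-1 library (filled circles) on a log axis, with the joining bar coloured by protein family and a dashed line at 20 RPKM. The longest bars among the genes past this line are those of kin-3 (12.7 and 28.3 RPKM) and the septin gene NCU01998 (24.2 and 15.9 RPKM).

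Of the 41 genes past the floor, kin-3 alone reached 2-fold in the direction of Δgul-1, no gene did so in the direction of the WT, and 40 stayed inside these bounds. Over all 4409 genes past the floor, the shares were 3.88% higher (171 genes) and 2.63% lower (116 genes). With TMM scaling these were 133 and 153 genes. At 1.5-fold the set had 1 higher and 1 lower gene, against 10.8% and 5.76% of all genes. A ratio from 0.8 to 1.25 was found for 34 of the 41 genes (82.9%), against 64.6% of all genes past the floor. The median log2 ratio was 0.06 for the set and 0.11 for all genes, or -0.09 and -0.04 when the log2 ratios of the same genes were shifted to TMM scaling. By the counting interval under the 4 scalings, 12 of the 41 genes were higher, 12 were lower and 17 were neither. All genes past the floor gave 32.1% higher and 26.9% lower. Of the 41 genes, 6 passed the floor through the Δgul-1 library alone, 5 of the 12 higher genes among them, and the septin gene NCU01998 through the WT library alone, so that the floor itself favoured their direction. Of the 34 genes past it in both libraries, 7 were higher and 11 were lower. Of all 3789 genes past it in both libraries, 1077 were higher and 1032 lower. Over all 55 genes with no floor, 14 were higher and 13 lower, where all 8985 genes with reads in both libraries gave 29.1% higher and 19.2% lower.

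**Figure D2:**
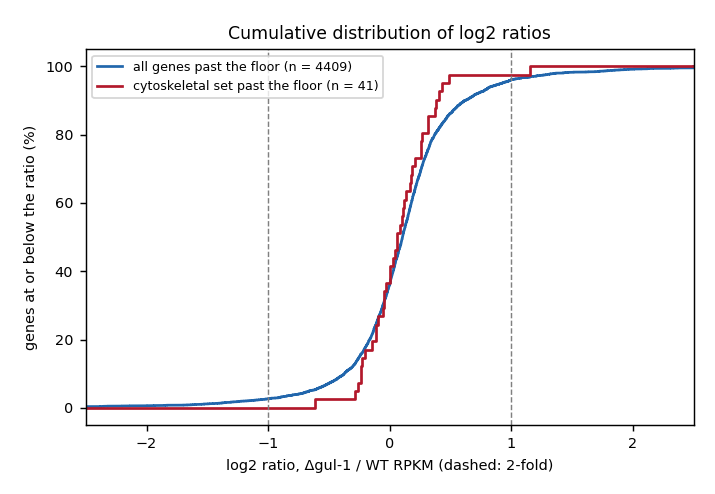
Share of genes (vertical axis, in %) at or below each log2 ratio of Δgul-1 to WT RPKM (horizontal axis) for the 41 cytoskeletal genes past the floor (red) and all 4409 genes past the floor (blue), with dashed lines at 2-fold. The red curve climbs more steeply than the blue one, with 34 of 41 genes at a ratio from 0.8 to 1.25, and a single gene, kin-3, lies beyond 2-fold.

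The kinesins, motors that mostly walk towards the plus ends of microtubules, held the gene with the largest ratio of the set. kin-3 (NCU03715, chromosome V of the NC12 assembly, 2184216 to 2187138), annotated as kinesin-3, had 739 reads and 12.7 RPKM in the WT. In Δgul-1 it had 1639 reads and 28.3 RPKM. This is 2.23-fold higher (interval 2.04 to 2.44), or 2.01-fold with TMM scaling. In RefSeq, its gene overlaps that of NCU03716, a hypothetical protein, which had 521 and 507 reads, fewer in both libraries than kin-3. How the counting treated strand is not stated in these sources. The neighbour on the other side, the thioredoxin gene NCU03714, had 268 and 222 reads.

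Of the 10 kinesin genes, taken with no floor, 6 were higher, 1 was lower and 3 were neither. All 8985 genes with reads in both libraries gave 29.1% higher and 19.2% lower. Of the kinesin genes, 6 were past the floor, 5 of them higher and 1 lower, against 32.1% and 26.9% of all genes past it. However, kin-3, nkin-2 and NCU04581 passed it through the Δgul-1 library alone, where they were high. Of the 3 kinesin genes past it in both libraries, 2 were higher and 1 was lower. Among all 3789 genes past it in both, 1077 were higher and 1032 lower. NCU06832 (chromosome II, 1837210 to 1844886) went from 38.3 to 53.8 RPKM, a ratio of 1.41 (interval 1.36 to 1.45). nkin-2 (NCU06733) had 18.1 and 23.5 RPKM (ratio 1.30). NCU04581 had 19.1 and 23.7 RPKM (ratio 1.24). kin-1 (NCU09730), the conventional kinesin of vesicle transport and the most abundant of the family, had 56.0 and 64.7 RPKM (ratio 1.16, interval 1.11 to 1.20). The lower one, NCU05028, had 34.2 and 32.05 RPKM (ratio 0.937).

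Under the floor, the kinesin gene NCU06144 was also higher, at 11.97 and 16.3 RPKM (ratio 1.36, interval 1.26 to 1.47). The other 3, NCU00927, NCU02626 and NCU05180, had ratios from 0.972 to 1.14. The median log2 ratio of all 10 kinesin genes was 0.26, or 0.11 after the shift to TMM scaling, and without kin-3 it was 0.21. All 8985 genes with reads in both libraries had medians of 0.15 and 0.00. The RPKM of all 10 summed to 230.3 and 284.6, and their reads made up 0.109% and 0.135% of the libraries.

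**Figure D3:**
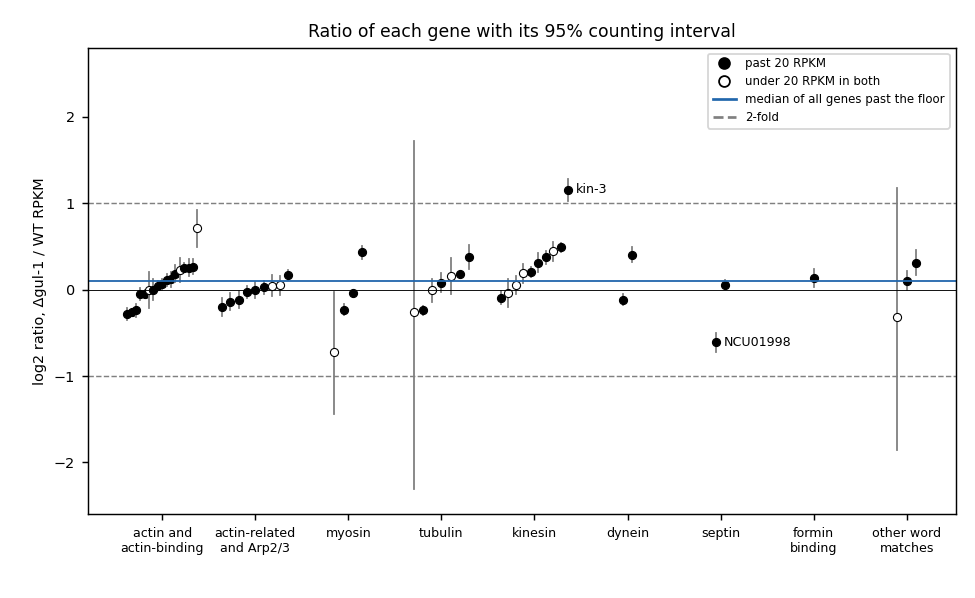
Log2 ratio of Δgul-1 to WT RPKM for each gene (points, filled where past 20 RPKM) by protein family, with vertical lines for the 95% counting interval, dashed lines at 2-fold and a blue line at the median of all genes past the floor (0.11). kin-3 lies above the upper dashed line at 1.16, the septin gene NCU01998 is the lowest filled point at -0.61, and the widest intervals belong to genes with few reads.

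Dynein walks towards the minus ends, with dynactin as its cofactor. Only 2 genes carried these words. The light intermediate chain gene NCU09982 (chromosome I, 2378823 to 2381643), whose product links the motor to its cargo adaptors, had 34.8 and 46.0 RPKM. It was higher in Δgul-1, with a ratio of 1.32 (interval 1.24 to 1.41). The light chain gene NCU02610 had 118.8 and 109.7 RPKM and was lower (ratio 0.924, interval 0.882 to 0.967). The 2 genes thus went apart by amounts beyond counting error.

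Several subunits of dynein and of its cofactor dynactin are annotated in N. crassa as ropy genes, after the curled hyphae of their mutants, and are not in the set. ro-1 (NCU06976), the dynein heavy chain gene, had 26.9 and 32.7 RPKM and was higher (ratio 1.22, interval 1.18 to 1.25). ro-3 (NCU03483), for the large dynactin subunit, had 16.5 and 17.8 RPKM. ro-4 (NCU04247), for the actin-related protein of the dynactin filament, had 26.0 and 27.3 RPKM. The lowest ratio of the 9 ropy genes was that of ro-7 (NCU03563), which encodes another actin-related subunit of dynactin, with 18.1 and 15.3 RPKM (ratio 0.842). Over the 9 genes the median log2 ratio was 0.09, and 4 passed the floor, all within 2-fold.

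Tubulin is a dimer of an alpha and a beta chain, and the alpha chain genes differed in direction. tba-1 (NCU09132, chromosome I, 5446124 to 5449418) had 7557 and 6361 reads, or 151.0 and 127.8 RPKM, and was lower (ratio 0.847, interval 0.819 to 0.876). tba-2 (NCU09468, chromosome II, 4376995 to 4380245) had 10468 and 11775 reads, or 196.5 and 222.4 RPKM. Its ratio of 1.13 (interval 1.10 to 1.16) became 1.02 with TMM scaling. The level of tba-2 relative to tba-1 does not depend on the scaling, and was 1.30 in the WT and 1.74 in Δgul-1. The sum of both was nearly the same, at 347.5 and 350.2 RPKM. These genes are paralogs, and reads that matched both were left out of the counts, so that their levels are less certain than those of single genes.

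The beta-tubulin gene Bml (NCU04054) is annotated by its benomyl resistance alleles, has none of the words of the rule and was added after its values were seen. It had 388.4 and 353.0 RPKM and was lower (ratio 0.909, interval 0.889 to 0.929). The alpha genes together thus stood at 0.895 of the beta gene in the WT and at 0.992 in Δgul-1. The gamma-tubulin gene tbg (NCU03954), whose product nucleates microtubules at spindle pole bodies, had 30.7 and 32.5 RPKM (ratio 1.06, interval 0.984 to 1.14).

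Of the tubulin folding genes, NCU02254 for cofactor C was higher, from 19.7 to 25.7 RPKM (ratio 1.30, interval 1.18 to 1.43). It passed the floor through the Δgul-1 library alone, where it was high. The tubulin-specific chaperone gene NCU09139 was under the floor with 367 and 407 reads (ratio 1.12, interval 0.966 to 1.29). The tubulin-tyrosine ligase gene NCU04743 was also under the floor, at 17.4 RPKM in both libraries. NCU00469, annotated as an alpha-tubulin suppressor, had 6 and 5 reads, too few for a comparison. Of the 7 tubulin genes, with no floor, 1 was higher, 1 was lower and 5 were neither. All 8985 genes with reads in both libraries gave 29.1% higher and 19.2% lower.

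Actin itself was lower in Δgul-1. act (NCU04173, chromosome V, 5086770 to 5089247) had 30744 and 25581 reads, or 803 and 673 RPKM, a ratio of 0.837 (interval 0.823 to 0.851) that was 0.754 with TMM scaling. By level it ranked 59 among all genes in the WT and 79 in Δgul-1. Cofilin and profilin are small proteins that control how actin monomers enter and leave filaments, and their genes were not called lower. The cofilin gene NCU01587, whose product severs old filaments, had 243.5 and 251.2 RPKM (ratio 1.03, interval 0.996 to 1.07, or 0.930 with TMM scaling). The profilin gene NCU06397, whose product feeds monomers to formins, had 78.2 and 94.0 RPKM and was higher (ratio 1.20, interval 1.13 to 1.27). Within a library, profilin RNA per actin RNA was 0.0974 in the WT and 0.140 in Δgul-1, which is 1.44-fold (interval 1.35 to 1.53) and does not depend on scaling.

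Among proteins that bind or bundle filaments, the tropomyosin gene tpm (NCU01204), whose product coats actin cables, had 204.4 and 243.9 RPKM. It was higher (ratio 1.19, interval 1.15 to 1.24), and its level per actin RNA went from 0.254 to 0.363. The fimbrin gene fim (NCU03992) and the alpha-actinin gene NCU06429, both for filament crosslinkers, had 114.1 and 110.4 RPKM and 49.6 and 53.6 RPKM. Neither was called higher or lower. The genes of the capping protein, which closes the fast-growing end of filaments as a dimer, were unequal. NCU07471 for the beta subunit was higher (52.8 and 63.0 RPKM, ratio 1.19), while NCU03911 for the alpha subunit had 49.0 RPKM in both.

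The coronin gene crn (NCU00202), whose product works with cofilin and the Arp2/3 complex at patches, had 65.3 and 55.3 RPKM and was lower (ratio 0.848, interval 0.806 to 0.892). NCU06171, annotated as a protein of the actin cytoskeleton-regulatory complex, was lower too, from 40.9 to 33.6 RPKM (ratio 0.822, interval 0.785 to 0.861). Another gene of that annotation, NCU06347 for the end-3 protein, had 57.3 and 62.2 RPKM. NCU01161 for Bzz1, in budding yeast a protein of endocytic actin patches, had 25.7 and 29.2 RPKM. NCU10073, an actin binding protein gene, and NCU07010, annotated as the cortical protein asp1, had ratios of 0.965 and 1.04.

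A second actin binding protein gene, NCU04647 (chromosome V, 1346454 to 1348108), stayed under the floor with 291 and 473 reads. Its 10.3 and 16.9 RPKM gave a ratio of 1.64 (interval 1.41 to 1.90), the second highest of all 55 genes. The App1 gene NCU11176, also under the floor, had 10.2 and 11.9 RPKM. The genes next to NCU04647, NCU04648 and NCU04646, had ratios of 0.965 and 1.05. By the counting interval, 32.1% of all genes past the floor were higher and 26.9% lower. Of the 17 actin and actin-binding genes, 14 passed the floor, with 3 higher, 3 lower and 8 neither. Their median log2 ratio was 0.05, and all 14 had a ratio from 0.8 to 1.25.

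The Arp2/3 complex branches actin filaments at endocytic patches, and 6 of its subunit genes were in the set and past the floor. The actin-related subunits had the highest ratios. arp-3 (NCU01756) had 123.2 and 138.4 RPKM (ratio 1.12, or 1.01 with TMM scaling), and arp2 (NCU07171) had 74.6 and 76.1 RPKM (ratio 1.02). The other 4 subunits lay between 0.868 and 0.980, the latter for the 34 kDa subunit gene NCU03050. Of these, NCU03438 (48.5 and 42.05 RPKM), the 20 kDa subunit gene NCU01918 (48.7 and 44.2 RPKM) and the 21 kDa subunit gene NCU09572 (71.4 and 65.9 RPKM) were lower. Of the 6 genes, 0 were thus higher and 3 lower, against 32.1% and 26.9% of all genes past the floor. The RPKM of the 6 genes summed to 450.6 and 449.1. Their median log2 ratio was -0.07.

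The other actin-related proteins of the set, arp-4, arp-5, arp-8 and the one of NCU05587 (annotated as arp-6), belong to chromatin remodelling complexes in yeasts rather than to the cytoskeleton. Their ratios ran from 0.998 to 1.03, each with a counting interval across 1. arp-5 (NCU06394), the only one past the floor, had 31.8 RPKM in both libraries.

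Myosins move along actin. Of the 3 myosin genes of the set past the floor, 1 was higher and 2 were lower, against 32.1% and 26.9% of all genes past it. The light chain gene NCU06617 (chromosome IV, 1816226 to 1817723), annotated as cdc4, in fission yeast a light chain of the cytokinetic ring, had 153.4 and 206.9 RPKM. It was higher, with a ratio of 1.35 (interval 1.28 to 1.42). The heavy chain genes of the set were lower. Their annotations carry numbers that were not checked against the myosin classes and need not be class numbers. NCU02111, annotated as myosin-5, had 50.6 and 43.1 RPKM (ratio 0.852, interval 0.816 to 0.889), and NCU01440, annotated as myosin-2, had 76.3 and 74.0 RPKM (ratio 0.970, interval 0.944 to 0.997). The light chain RNA per NCU01440 RNA was 2.01 in the WT and 2.79 in Δgul-1. The annotations do not say which heavy chain this light chain joins, so that this pair need not belong to a single motor. mcl-1 (NCU01413), a myosin chain-like gene, had 48 and 29 reads (ratio 0.608, interval 0.370 to 0.984). A heavy chain gene outside the rule, the myo2-like NCU00551, was added after its values were seen and was higher (37.0 and 43.7 RPKM, ratio 1.18).

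The septin gene NCU01998 (chromosome I, 1724390 to 1728311) was the farthest below 1 of the genes past the floor. Its reads numbered 1668 in the WT and 1086 in Δgul-1, or 24.2 and 15.9 RPKM, which is 1.53-fold lower (interval 1.41 to 1.65). It passed the floor through the WT library alone. The adjoining gene NCU01999, which overlaps it in RefSeq, had 1053 and 961 reads (ratio 0.918). The other septin gene of the set, NCU02464, annotated as neuronal-specific septin-3, had 129.1 and 134.3 RPKM (ratio 1.04). NCU01998 thus stood at 0.188 of its level in the WT and at 0.118 in Δgul-1.

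The septin genes annotated as cell division control proteins carry none of the words of the rule, are not in the set and were added after their values were seen. NCU08297, annotated as cell division control protein 3, had 180.0 and 141.3 RPKM and was lower (ratio 0.785, interval 0.764 to 0.807). NCU03515, for protein 10, had 168.0 and 167.3 RPKM. NCU03795, for protein 12, had 143.3 and 137.6 RPKM and was lower by a small amount (ratio 0.960, interval 0.927 to 0.995). In budding yeast, proteins of these names join in one filament.

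Formins nucleate unbranched actin cables. The word formin gave NCU03062, a formin binding protein gene with 19.5 and 21.4 RPKM (ratio 1.10, interval 1.02 to 1.18), which was 0.988 with TMM scaling. The formin gene bni1 (NCU01431), added after its values were seen, had 45.5 and 55.6 RPKM and was higher (ratio 1.22, interval 1.18 to 1.26). The word rule also took in 3 genes that are not cytoskeletal by their annotation, where the letters stand inside other words. NCU04419, an ethylene/succinate-forming enzyme gene, was higher (16.1 and 20.01 RPKM, ratio 1.24) and reached the floor by a narrow margin. NCU08633 (cactin) had 37.0 and 39.8 RPKM, and NCU02197, an aldehyde-forming enzyme gene, had 10 and 8 reads.

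**Figure D4:**
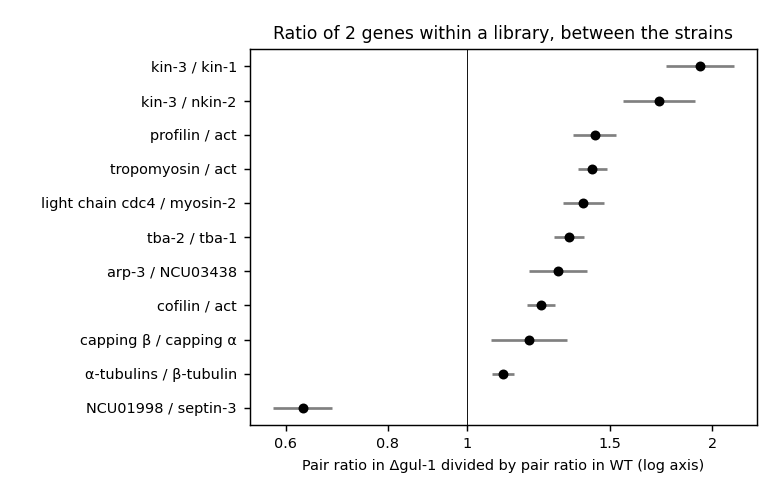
RPKM of one gene divided by that of another within each library, shown as the value in Δgul-1 divided by the value in the WT (horizontal log axis) for 11 pairs, with lines for the 95% counting interval. The pairs were chosen after the values were seen, so that their distance from 1 is a description. kin-3 per kin-1 lies at 1.93, profilin per actin at 1.44, tba-2 per tba-1 at 1.34 and the septin gene NCU01998 per NCU02464 at 0.629.

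Genes that fold, recruit or steer the cytoskeleton were compared in 4 lists made from other annotation words, with 51 genes, 39 of them past the floor. All 39 stayed within 2-fold. The chaperonin CCT and its helper prefoldin fold actin and tubulin. All 10 of their genes past the floor had a ratio above 1 with the deposited RPKM, 3 of them below 1 with TMM scaling. Of all genes past the floor, 63.9% had a ratio above 1 with the deposited RPKM and 44% with TMM scaling. By the counting interval, 32.1% of all genes past the floor were higher and 26.9% lower. Of the 10 CCT and prefoldin genes, 4 were higher and 6 neither. Their median log2 ratio was 0.20, or 0.05 after the shift to TMM scaling. NCU02264 for prefoldin subunit 3 had 30.6 and 47.8 RPKM, 1.56-fold higher (interval 1.43 to 1.70). NCU02207 (annotated as subunit beta) and NCU09709 (subunit zeta) had a ratio of 1.29 each.

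Of the exocyst and polarity genes, 2 of the 11 past the floor were higher and 1 was lower (all genes: 32.1% and 26.9%). bud6 (NCU08468), in budding yeast a partner of the formin Bni1, had 39.1 and 50.9 RPKM (ratio 1.30). NCU04511, annotated as bud site selection protein 7, had 46.7 and 55.5 RPKM (ratio 1.19), and the exocyst gene NCU00117 for Sec15 had 41.98 and 48.8 RPKM (ratio 1.16, or 1.05 with TMM scaling). The lower one was bud3 (NCU06579), at 27.6 and 24.5 RPKM. All 7 genes of the endocytic patch list were past the floor, with ratios from 0.903 for NCU04637 (RVS167) to 1.12 for epsin-3 (NCU00725). Of these, 0 were higher and 2, NCU04637 and NCU04115, were lower (all genes: 32.1% and 26.9%). The words of this list missed NCU02978, annotated as SLA1p, which was higher (ratio 1.62) and is given below. The clathrin light chain gene NCU04115 had 69.6 and 64.7 RPKM and was lower, and the WASP-like gene NCU07438 had 47.4 and 48.8 RPKM.

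In the list of microtubule, spindle pole and nuclear migration genes, 11 of 20 passed the floor. Of these, 1 was higher and 3 were lower, against 32.1% and 26.9% of all genes past it. The farthest from 1 was NCU01290, annotated as the centromere/microtubule-binding protein CBF5, with 35.4 and 23.4 RPKM (1.51-fold lower, interval 1.40 to 1.63). In budding yeast, Cbf5 modifies ribosomal RNA, and the gene is in this list by its annotation alone. The single higher gene was ro-1, and ro-6 (NCU09142) followed it with 37.1 and 42.9 RPKM (ratio 1.16, or 1.04 with TMM scaling). The EB1-like gene NCU00243, for a protein that tracks growing microtubule ends, had 55.5 and 59.5 RPKM (ratio 1.07).

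**Figure D5:**
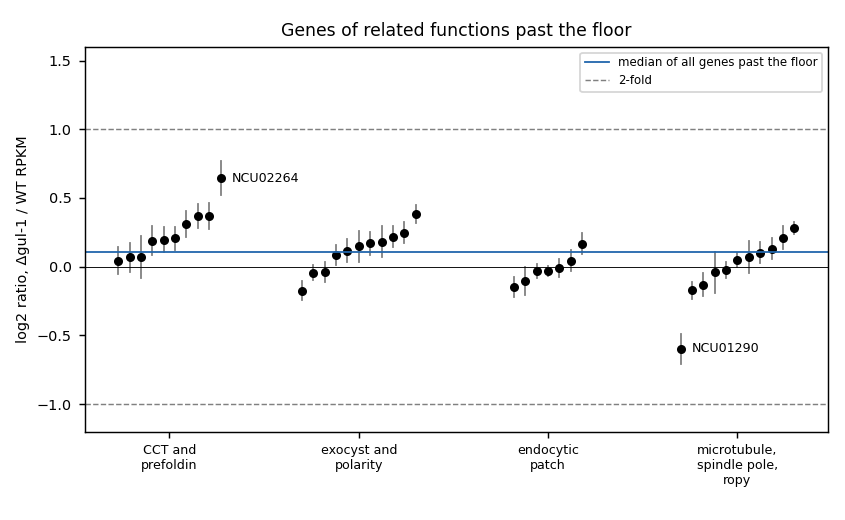
Log2 ratio of Δgul-1 to WT RPKM for the 39 genes past the floor in 4 lists of related function (points), with 95% counting intervals, dashed lines at 2-fold and a blue line at the median of all genes past the floor. All points lie within 2-fold, with prefoldin subunit 3 (NCU02264) highest at 0.64 and NCU01290 lowest at -0.60.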

How the data were processed

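Per the labels and the methods, the authors aligned the reads to predicted N. crassa transcripts (genome version 12) by TopHat 2.0.8b and counted reads unique to 1 gene with HTSeq 0.5.4p2. The deposited table holds these raw read counts per gene, the exon length, the authors' RPKM and their NOISeq probability, which was not used. The deposited RPKM equalled reads divided by exon length and library total, with a largest gap of 1.8e-12. With 1 library per strain, ratios were taken without a pseudocount and given exact Clopper-Pearson intervals, which cover counting error only. Steps were tested on simulated counts. Intervals of pair ratios used the normal approximation on the log scale. TMM scaling was done in R 4.3.3 with edgeR 4.0.16. Other steps used Python 3.11.15, pandas 2.3.3, numpy 2.4.6, scipy 1.17.1 and matplotlib 3.10.9. The other scalings were median-of-ratios size factors and the total of all genes but the 50 most abundant.

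Members and lists were chosen with earlier results of these data known. The rule left out annotations with the words interacting, lactin or bactin. Named genes were gul-1, actin, the tubulin chains, genes past 1.5-fold, genes under the floor past 2-fold with an interval off 1 (none was), and in each family up to 4 with the largest log2 ratios in size and the 2 most abundant. Up to 3 were named in each related list. Other genes, the 9 added genes and the 11 pairs were chosen after their values were seen, as were the call by 4 scalings and the counts with no floor. Symbols and positions are from RefSeq (NC12), which matched all 55 genes by locus tag. In RefSeq, 15 of the 55 overlap a neighbour. One list of related genes is not reported here.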

Additional observations from a re-analysis of the deposited data

How the results depend on the processing

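kin-3 remained the 1 gene at least 2-fold higher, and no gene of the set was at least 2-fold lower, with TMM scaling, median-of-ratios size factors, the total of all genes but the 50 most abundant, a floor of 5 RPKM, no floor, a floor on the mean of both libraries (chosen after seeing the data), a pseudocount of 1 RPKM, only genes with a true cytoskeletal word, or a counting interval that had to lie beyond 2-fold. With a floor of 50 RPKM or a 3-fold threshold the number of higher genes was 0, and at 1.5-fold the number of lower genes was 1. These follow from the thresholds themselves. The interval setting used the deposited RPKM, where the interval of kin-3 was 2.04 to 2.44. With TMM scaling its ratio was 2.01, so close to 2 that its counting interval would reach below 2-fold. The median log2 ratio of 0.06 became -0.091 with TMM scaling or median-of-ratios size factors, each with 40 genes past the floor, and the ratio of summed RPKM became 0.915 with TMM scaling and 1.06 without act. Scaling by TMM or size factors moved the ratios of 48 of the 55 genes beyond their counting intervals, and leaving out the most abundant genes did so for 10. The counting interval lay above 1 for 19 genes with the deposited RPKM and for 12 under all 4 scalings, and below 1 for 12 in either case. No paired analysis was possible because each strain has 1 library, and no replicate could be left out. Depth limits NCU00469, NCU02197 and mcl-1, with under 50 reads in each library.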

Other observations

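Some partners of actin carry none of the words of the rule and were looked up after the values were seen. NCU02978, annotated as the cytoskeleton assembly control protein SLA1p, in budding yeast an adaptor of endocytic patches that binds the WASP protein, had 4059 and 6554 reads, or 50.04 and 81.3 RPKM. It was 1.62-fold higher (interval 1.56 to 1.69). The genes listed for the endocytic patch, a list whose words missed NCU02978, had ratios from 0.903 to 1.12. NCU08008, annotated as an adenylyl cyclase-associated protein, in yeasts a recycler of actin monomers, had 85.6 and 79.6 RPKM. Like act, it was lower (ratio 0.930, interval 0.890 to 0.971). The twinfilin gene NCU16698 had 23.8 and 26.8 RPKM (ratio 1.13, interval 1.01 to 1.25).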
